A study of Homo sapiens with 4 samples.

Results

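The BCL2 family sets whether the mitochondrial outer membrane of a cell stays closed or is opened during apoptosis. Its antiapoptotic members (BCL2, BCL2L1, MCL1 and BCL2A1) hold the pore-forming effectors BAX and BAK1 in check. The BH3-only members (BCL2L11, BBC3, PMAIP1 and BIK) bind the antiapoptotic proteins, and some of them also engage the effectors. BCL-XL, the long product of BCL2L1, is known for keeping maturing erythroid cells and platelets alive, and MCL1 for the survival of hematopoietic stem and progenitor cells. The 10 genes were taken by their symbols from a table of 58274 gene identifiers, and the rule uses no measured value, although the list was drawn up with earlier results of these data known. Of the 10, 8 reached at least 1 FPKM (fragments mapped to a gene, per kilobase of its transcripts, in every 1000000 fragments mapped) in at least 1 library, as did 17137 genes in all. BCL2 and BCL2A1 did not.

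RNA was sequenced from undifferentiated BC1 cells, which are 1 line of human induced pluripotent stem cells, and 3 populations were purified for sequencing from its hematopoietic cultures. These were APLNR+ mesoderm cells of day 2, CD31+CD34+ hemogenic endothelial progenitors (HEPs) of day 5 and CD43+ hematopoietic progenitor cells (HPCs) of day 8. Per the labels, the cultures received activin A at 40 ng/ml with BMP4 at 50 ng/ml over the first 2 days, and then VEGF at 40 ng/ml with bFGF at 50 ng/ml over 6 days. The study's methods exchange the amounts of activin A and BMP4. Each population had 1 library, so no difference has a replicate check and no test was run, and every interval given here covers counting error alone. The 4 populations lie on 1 time course, so consecutive comparisons share a library.

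The depth recovered from the values was between 19700000 and 23600000 mapped fragments per library. Marker genes followed the labels. The summed FPKM of 5 pluripotency genes was 2670 in BC1 and 22.8 in CD43+ cells, that of 5 mesoderm genes was 1145 in APLNR+ cells and at most 7.95 elsewhere, and that of 7 endothelial genes was 1297 in CD31+CD34+ cells. In CD43+ cells, 6 erythroid genes summed to 11095 and 5 megakaryocytic genes to 3073. The 6 myeloid genes summed to 23.0 there, mostly from LYZ at 12.7 and CSF1R at 8.8, with ELANE at 0, and 4 neural genes to at most 1.31 in any library. In such bulk libraries a smaller share of a cell type and less RNA per cell cannot be told apart.

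The shared feature of the family is the BH3 motif, a leucine followed after 3 residues by a small residue and an aspartate. Its codons are shown because this short helix is what the antiapoptotic proteins bind. It is the only homology motif of the family that the BH3-only members share with the rest. Each stretch is 27 bases of coding exon on GRCh38, read from GENCODE release 29 transcripts, with the leucine codon, the glycine codon (alanine in BBC3) and the aspartate codon in capitals.
BCL2 at chr18:63318352-63318378 (minus strand): CTCcgccaggccGGCGACgacttctcc
BCL2L1 at chr20:31721925-31721951 (minus strand): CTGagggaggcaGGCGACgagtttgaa
MCL1 at chr1:150578868-150578894 (minus strand): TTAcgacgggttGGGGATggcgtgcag
BAX at chr19:48955787-48955813 (plus strand): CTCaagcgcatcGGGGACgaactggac
BAK1 at chr6:33575390-33575416 (minus strand): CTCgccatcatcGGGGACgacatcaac
BCL2L11 at chr2:111150103-111150129 (plus strand): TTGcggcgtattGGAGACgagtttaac
BBC3 at chr19:47226582-47226608 (minus strand): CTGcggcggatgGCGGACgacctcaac
PMAIP1 at chr18:59902673-59902699 (plus strand): CTCaggagatttGGAGACaaactgaac
BIK at chr22:43127716-43127742 (plus strand): CTGgcctgcatcGGGGACgagatggac

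No stretch of this form was found in the 2 coding transcripts of BCL2A1. The BAK1 and BIK stretches were identical at 21 of 27 bases and those of BCL2 and BCL2L1 at 17 of 27. The stretch was not in every transcript of a gene. It was in 7 of the 14 complete coding frames of BCL2L11, 2 of 4 of BBC3, 1 of 2 of PMAIP1 and 4 of 6 of BAX. The codon pattern also matched another stretch in 2 other transcripts of BCL2L11 and in 2 of BBC3. Those matches are not shown or counted here. The deposited values are sums over a gene's transcripts, so forms with and without the motif, and the long and short forms of BCL2L1 and MCL1, cannot be told apart in them.

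The antiapoptotic members were examined first. BCL2L1 (chromosome 20, 31664452 to 31723989, minus strand), which encodes BCL-XL, was at 63.5 FPKM in BC1, 24.5 in APLNR+ cells, 109 in CD31+CD34+ cells and 214 in CD43+ cells. The level was lowest in the mesoderm population and highest in the hematopoietic population, and none of the 4 counting intervals overlapped. From BC1 to APLNR+ cells BCL2L1 was 2.6-fold lower (95% counting interval 2.29 to 2.96). From APLNR+ to CD31+CD34+ cells it was 4.45-fold higher (3.96 to 5.02). From CD31+CD34+ to CD43+ cells it was 1.97-fold higher (1.85 to 2.09). That last step was a change of 0.97 in log2(FPKM + 1), just inside the threshold of 1 used to call a gene higher or lower. The level in CD43+ cells was above 97.4% of the 13910 protein-coding genes kept, against 71.7% in APLNR+ cells. The higher level in the CD43+ library came with the erythroid and megakaryocytic marker sums, which were 78.3 and 87.4 in CD31+CD34+ cells and 11095 and 3073 in CD43+ cells. Most of the erythroid sum in CD43+ cells came from HBE1 (5271) and HBG2 (5256). Of the 6 erythroid genes 5 were called higher at this step, and EPOR was at 35.2 and then 30.6. The part of these sums in the BCL2L1 level was not tested. The antisense gene ABALON shares 1424 of the 3314 exonic bases of BCL2L1 and was listed at 4.97 FPKM or less in every library.

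MCL1 (chromosome 1, 150574551 to 150579738, minus strand), a short-lived protein that binds BAK1 and most BH3-only members, was at 102 FPKM in BC1, 83.6 in APLNR+ cells, 71.9 in CD31+CD34+ cells and 118 in CD43+ cells. These levels lay closer together than those of BCL2L1, and no step was called. The largest difference between neighbours was from CD31+CD34+ to CD43+ cells, where MCL1 was 1.64-fold higher (1.58 to 1.69).

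Because FPKM is scaled to transcript length, the antiapoptotic members could be set against each other within a library. MCL1 had 61.3% of the summed antiapoptotic FPKM in BC1 and 77.1% in APLNR+ cells, and BCL2L1 had 60.0% in CD31+CD34+ cells and 64.4% in CD43+ cells. The order of these genes thus changed between the mesoderm and the HEP population. The ratio of BCL2L1 to MCL1 was 0.624 in BC1, 0.293 in APLNR+ cells, 1.51 in CD31+CD34+ cells and 1.82 in CD43+ cells. The 9 coding transcripts of BCL2L1 run from 381 to 2610 bases, so these levels depend on how its fragments were divided among them, which was not tested.

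BCL2, the founding member, was at 0.752 FPKM in BC1, 0.347 in APLNR+ cells, 0.759 in CD31+CD34+ cells and 0.569 in CD43+ cells, from about 70.3, 35.3, 84.8 and 57.9 fragments. It stayed below 1 FPKM in all 4 libraries, and the intervals of BC1, CD31+CD34+ and CD43+ cells overlapped. From BC1 to APLNR+ cells it was 2.16-fold lower (1.42 to 3.35). From there to CD31+CD34+ cells BCL2 was 2.19-fold higher (1.46 to 3.34). BCL2A1, a member known from activated leukocytes, was listed at 0 in every library. A count of 0 allows up to 3 fragments, or between 0.198 and 0.23 FPKM for this gene.

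**Figure D1:**
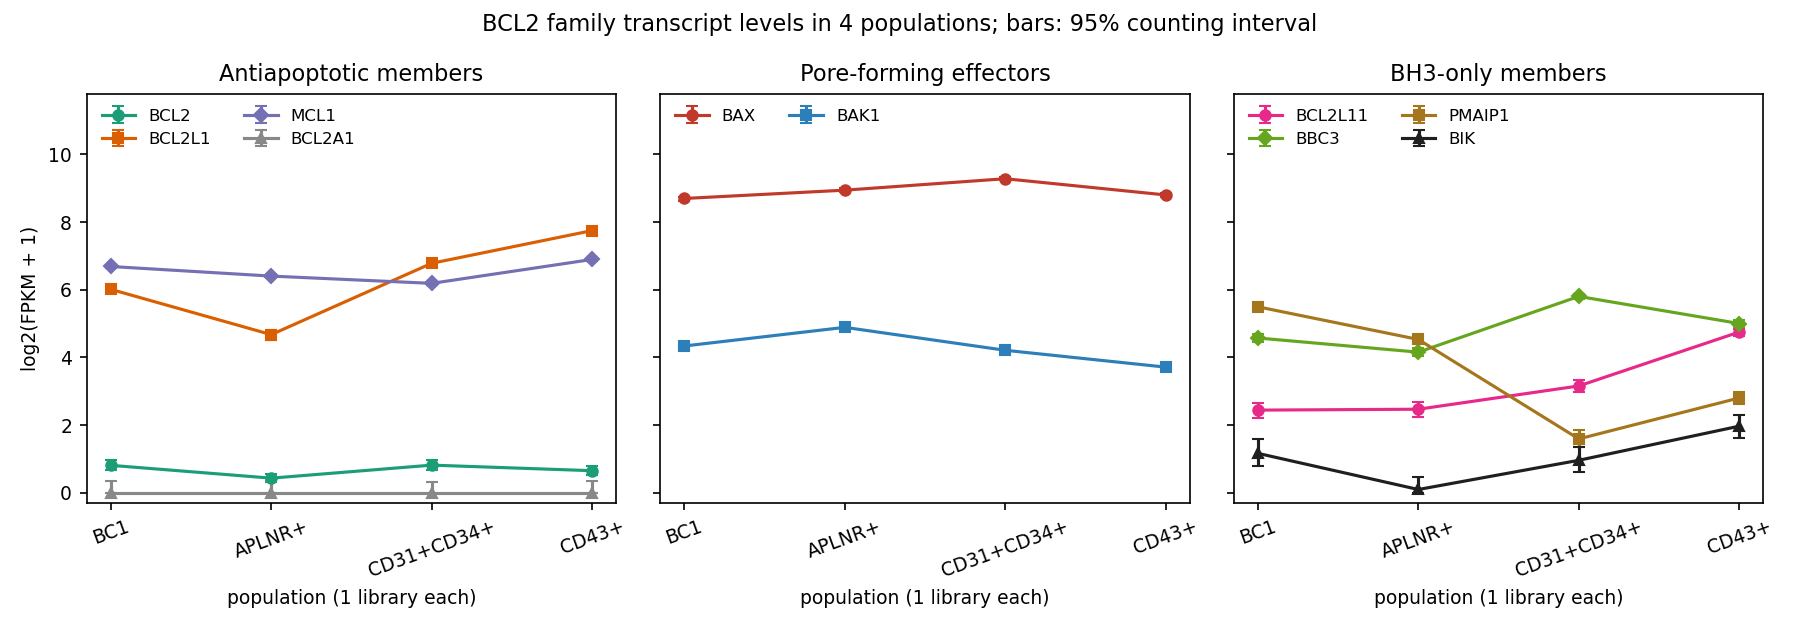
Level of the 10 members as log2(FPKM + 1) in the 4 populations, 1 library each, with a panel for each role and bars for the 95% counting interval. BCL2L1 lies below MCL1 in BC1 and APLNR+ cells and above it in CD31+CD34+ and CD43+ cells, BAX is the highest member in every library at 414 to 621 FPKM, and PMAIP1 drops from 22.1 to 2.01 FPKM between APLNR+ and CD31+CD34+ cells.

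Neither effector differed by the threshold of 1 between neighbouring populations. BAX (chromosome 19, 48954815 to 48961798, plus strand), which moves from the cytosol to mitochondria to form pores, was at 414 FPKM in BC1, 491 in APLNR+ cells, 621 in CD31+CD34+ cells and 445 in CD43+ cells. It was the highest of the 10 members in every library and above at least 98.7% of the protein-coding genes. No step was called, and the CD43+ level was 1.08-fold that of BC1 (1.02 to 1.14). The 7 coding transcripts of BAX run from 383 to 1358 bases, so its FPKM and intervals depend on how fragments were divided among them. That was not tested. At the shortest length BC1 and CD43+ would hold about 1003 and 986 fragments, not 2284 and 2488, and the interval would be wider.

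BAK1 (chromosome 6, 33572547 to 33580293, minus strand), the effector that resides in the mitochondrial membrane, was at 19.2 FPKM in BC1, 28.6 in APLNR+ cells, 17.5 in CD31+CD34+ cells and 12.1 in CD43+ cells. It was highest in APLNR+ cells, from which it was 1.64-fold lower (1.49 to 1.8) in CD31+CD34+ cells. The intervals of BC1 and CD31+CD34+ cells overlapped. No consecutive step of BAK1 was called, although from its highest level, in APLNR+ cells, to its lowest, in CD43+ cells, the change was 1.18 in size. Its processed pseudogene BAK1P1 was listed at 0.403 FPKM or less. The ratio of BAX to BAK1 was 21.5 in BC1, 17.2 in APLNR+ cells, 35.5 in CD31+CD34+ cells and 36.8 in CD43+ cells.

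The BH3-only members differed most among themselves. PMAIP1 (NOXA, chromosome 18, 59899948 to 59904306, plus strand), which binds MCL1, was at 44.1 FPKM in BC1, 22.1 in APLNR+ cells, 2.01 in CD31+CD34+ cells and 5.97 in CD43+ cells. It was highest in the pluripotent cells and lowest in the HEPs, with no overlap between any counting intervals. From BC1 to APLNR+ cells it was 2.0-fold lower (1.81 to 2.2), a log2 change of -0.97 and so not called. From APLNR+ to CD31+CD34+ cells it was 11.0-fold lower (8.47 to 14.5), and from there to CD43+ cells 2.97-fold higher (2.21 to 4.04). Between the ends of the course it was 7.37-fold lower (6.27 to 8.71) in CD43+ cells than in BC1. The pluripotency marker sum was also lower at each of the first 2 steps. It was 2670 in BC1, 736 in APLNR+ cells and 30.9 in CD31+CD34+ cells. At 22.8 it was lower still in CD43+ cells, where PMAIP1 was higher than in CD31+CD34+ cells. Most of the sum came from DPPA4 in CD31+CD34+ cells (27.8) and CD43+ cells (22.5). The part of the pluripotency sum in the PMAIP1 level was not tested. The ratio of MCL1 to PMAIP1 was 2.31 in BC1, 3.79 in APLNR+ cells, 35.8 in CD31+CD34+ cells and 19.7 in CD43+ cells.

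BBC3 (PUMA, chromosome 19, 47220822 to 47232766, minus strand), which binds all antiapoptotic members, was at 22.8 FPKM in BC1, 16.8 in APLNR+ cells, 54.8 in CD31+CD34+ cells and 31.0 in CD43+ cells. Its peak in the HEPs fell at the stage where PMAIP1 was lowest. From APLNR+ to CD31+CD34+ cells BBC3 was 3.25-fold higher (2.95 to 3.59), and from there to CD43+ cells 1.76-fold lower (1.63 to 1.91), which was not called.

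BCL2L11 (BIM, chromosome 2, 111119378 to 111168447, plus strand), which binds all antiapoptotic members and is known for removing hematopoietic cells deprived of cytokines, was at 4.43 FPKM in BC1, 4.53 in APLNR+ cells, 7.91 in CD31+CD34+ cells and 25.9 in CD43+ cells. The first 2 levels were not separated by their intervals, and the CD43+ library stood above the rest. From CD31+CD34+ to CD43+ cells it was 3.27-fold higher (2.81 to 3.81), and against BC1 5.84-fold higher (4.77 to 7.21). Its increase came with the erythroid and megakaryocytic sums given for BCL2L1, and their part in it was not tested. The opposite-strand gene MIR4435-2HG shares 727 of the 6658 exonic bases of BCL2L11 (10.9%) and was listed at 17.9 FPKM in BC1, 7.98 in APLNR+ cells, 69.2 in CD31+CD34+ cells and 121 in CD43+ cells. Whether strand was used in the counting is not given in the sources used here, and the part of fragments from this gene in the BCL2L11 values was not tested.

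BIK (chromosome 22, 43110748 to 43129712, plus strand), a BH3-only protein of the endoplasmic reticulum, was at 1.24 FPKM in BC1, 0.0675 in APLNR+ cells, 0.942 in CD31+CD34+ cells and 2.91 in CD43+ cells. These values stand for 17, 1, 15 and 42 fragments, since the gene has 1 annotated transcript of 953 bases. The ratio from BC1 to APLNR+ cells was 18.4-fold lower with an interval of 2.89 to 770, because it rests on 1 fragment. The CD43+ level was 3.08-fold that of CD31+CD34+ cells (1.68 to 5.99). On the log2(FPKM + 1) scale, which understates changes of low genes, the step from APLNR+ to CD31+CD34+ cells was not called for BIK.

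**Figure D2:**
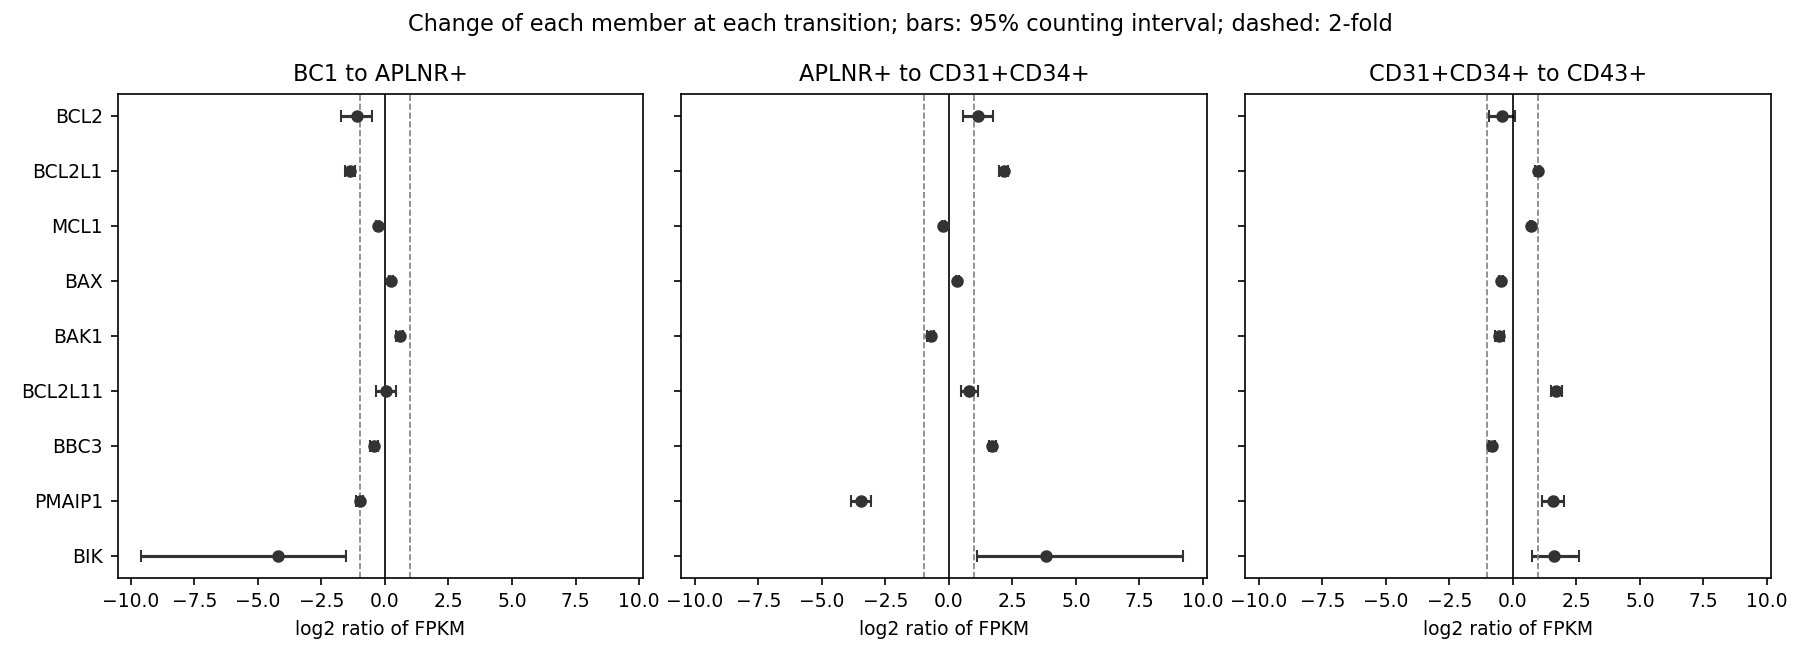
Log2 ratio of FPKM of each member at the 3 consecutive transitions, with bars for the 95% counting interval and dashed lines at 2-fold; BCL2A1 is left out because it was listed at 0. PMAIP1 is 11.0-fold lower and BCL2L1 4.45-fold higher from APLNR+ to CD31+CD34+ cells, the effectors stay within the dashed lines throughout, and the long bars of BIK rest on 1 fragment in APLNR+ cells.

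Over the 8 members kept, counts of those that differed by at least 1 in log2(FPKM + 1) were read against all 17137 genes. From BC1 to APLNR+ cells, 0 members were higher and 2 were lower (BCL2L1 and BIK), where 9.15% of all genes were higher and 9.32% lower. From APLNR+ to CD31+CD34+ cells, 2 were higher (BCL2L1 and BBC3) and 1 was lower (PMAIP1), where 13.0% of all genes were higher and 11.4% lower. From CD31+CD34+ to CD43+ cells, 3 were higher (BCL2L11, PMAIP1 and BIK) and 0 were lower, where 7.63% of all genes were higher and 13.5% lower. Between BC1 and CD43+ cells, 2 were higher (BCL2L1 and BCL2L11) and 1 was lower (PMAIP1), where 15.2% were higher and 18.9% lower. The 3 higher members of 8 at the last transition, against 7.63%, lay farthest from the background. Of these, BIK was just past the threshold, at 1.01 from about 15 and 42 fragments. Each of the other counts differed from the share of all genes by fewer than 2 of the 8 genes. The median change of the 8 members was -0.35, 0.51 and 0.84 at the 3 transitions in turn, beside 0.00, 0.01 and -0.08 for all genes.

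The roles were then summed. The antiapoptotic members summed to 166 FPKM in BC1, 108 in APLNR+ cells, 181 in CD31+CD34+ cells and 333 in CD43+ cells. The BH3-only members summed to 72.5, 43.5, 65.6 and 65.8 FPKM in the same order, and the effectors to 433, 520, 638 and 457. The ratio of antiapoptotic to BH3-only FPKM was between 2.29 and 2.77 in the first 3 populations and 5.06 in CD43+ cells. The ratio to the effectors was lowest in APLNR+ cells at 0.208 and highest in CD43+ cells at 0.728. These are ratios of transcript levels, and protein levels were not measured. The sums cover only the chosen members. The antiapoptotic gene BCL2L2, at 6.42 to 28.0 FPKM, is outside them. So are the BH3-only genes BID (24.3 to 50.6), BAD (9.62 to 39.3) and BMF (8.85 to 25.5). Ratios that include these genes were not computed and could differ.

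The similar BH3-only sums of BC1, CD31+CD34+ and CD43+ cells were made up of different genes. PMAIP1 had 60.7% of the sum in BC1, 50.7% in APLNR+ cells, 3.06% in CD31+CD34+ cells and 9.08% in CD43+ cells. BBC3 had 31.5%, 38.7%, 83.4% and 47.2% in the same order, and BCL2L11 had 6.1%, 10.4%, 12.1% and 39.3%. Among the BH3-only members, the leading transcript was thus that of PMAIP1 up to the mesoderm stage and that of BBC3 afterwards. BCL2L11 was next to BBC3 in CD43+ cells. Genes outside the members could rank higher. BAD was at 37.2 FPKM in APLNR+ cells, above PMAIP1 at 22.1. BID was at 50.6 FPKM in CD43+ cells, above BBC3 at 31.0. The 17 coding transcripts of BCL2L11 run from 243 to 5231 bases, and the same limit holds for its share.

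**Figure D3:**
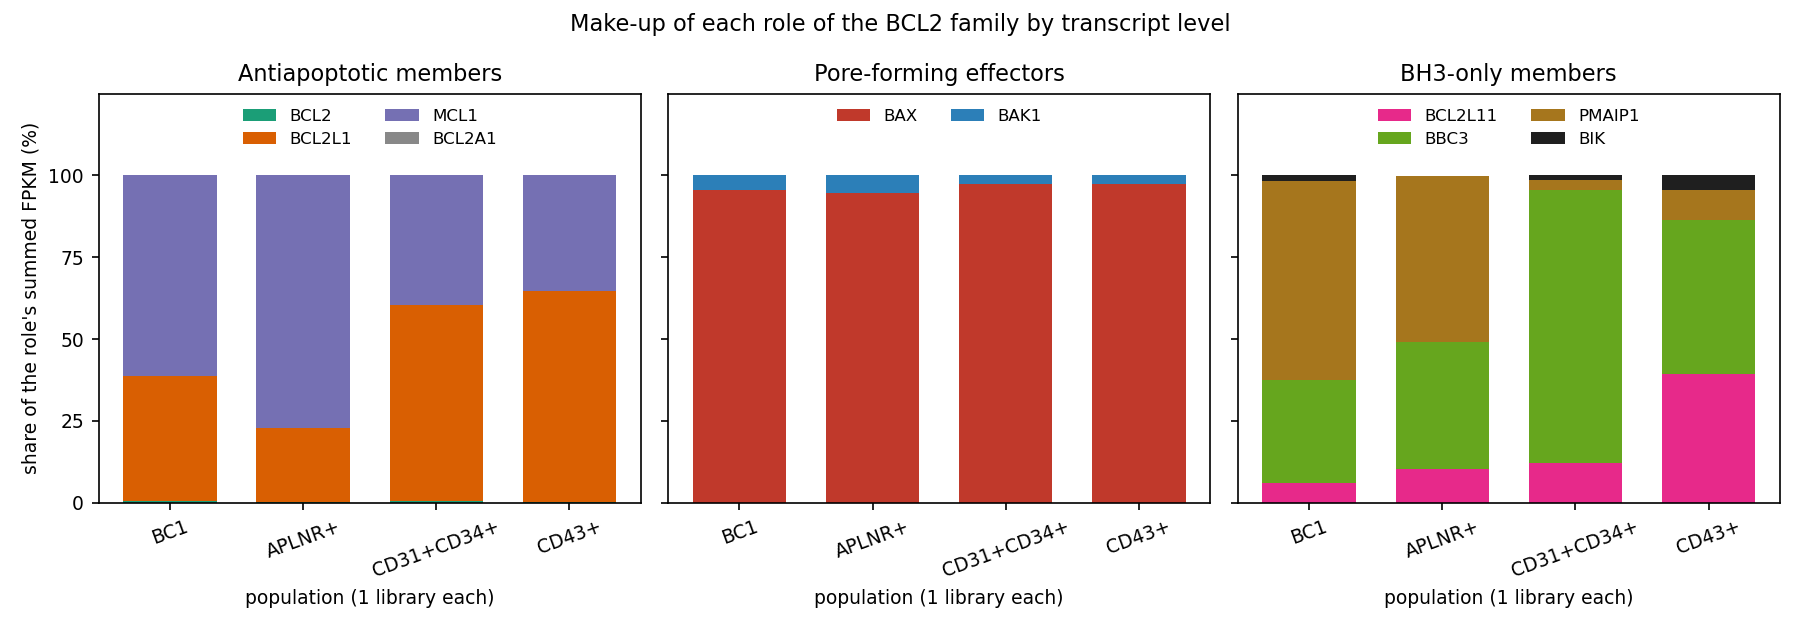
Share of each member in the summed FPKM of its role, in percent, for the 4 populations with 1 library each. BCL2L1 goes from 22.6% of the antiapoptotic sum in APLNR+ cells to 64.4% in CD43+ cells, and BAX takes nearly all of the effector sum. In the BH3-only sum PMAIP1 leads in BC1 and APLNR+ cells and BBC3 in CD31+CD34+ and CD43+ cells. BCL2L11 has 39.3% in CD43+ cells, below BBC3 at 47.2%.

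A further 79 genes of the apoptotic pathway were read from 7 lists, and 71 of them were kept. From BC1 to APLNR+ cells 8 were higher and 3 lower, beside 9.15% and 9.32% of all genes. From APLNR+ to CD31+CD34+ cells 19 were higher and 2 lower, beside 13.0% and 11.4%. From CD31+CD34+ to CD43+ cells 3 were higher and 15 lower, beside 7.63% and 13.5%. Their median change was 0.27 at the second of these transitions and -0.20 at the third, beside 0.01 and -0.08 for all genes. FAS and TNFRSF10B belonged to both the death receptor and the DNA damage list.

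Of the other BCL2 family genes, 10 of 14 were kept. BNIP3 and BNIP3L, mitophagy receptors, differed at different steps. BNIP3 was at 17.2, 39.1, 36.0 and 86.2 FPKM from BC1 to CD43+ cells in order of the time course, and BNIP3L, known for clearing mitochondria from maturing red cells, was at 15.6, 13.3, 45.9 and 54.8. BNIP3 was thus higher at the first and last step, and BNIP3L at the middle one. BCL2L2, a further antiapoptotic gene, was 2.54-fold higher (1.74 to 3.76) in APLNR+ cells than in BC1. BAD, a BH3-only gene controlled by survival kinases, was at 13.4, 37.2, 39.3 and 9.62 FPKM along the course. BMF, a BH3-only gene, had its high value in CD31+CD34+ cells (25.5 FPKM beside 8.85 to 9.46 elsewhere), and BOK, a relative of the effectors, was 3.67-fold lower (3.29 to 4.11) in CD43+ than in CD31+CD34+ cells. In all, 3, 2 and 1 of the 10 were higher and 0, 0 and 3 were lower at the 3 transitions. Of all genes, 9.15%, 13.0% and 7.63% were higher and 9.32%, 11.4% and 13.5% lower.

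Downstream of the mitochondria, all 11 genes of the apoptosome and caspases read here were kept. At the 3 transitions 0, 0 and 2 were higher and 0, 1 and 0 lower. The shares of all genes were 9.15%, 13.0% and 7.63% higher and 9.32%, 11.4% and 13.5% lower. CYCS, cytochrome c, was at 169 FPKM in BC1, 168 in APLNR+ cells, 69.8 in CD31+CD34+ cells and 146 in CD43+ cells and was lowest in CD31+CD34+ cells. DFFB, the apoptotic nuclease, was 2.42-fold higher (1.92 to 3.05) in CD43+ than in CD31+CD34+ cells. Of the 7 inhibitors of apoptosis, 4 were kept. BIRC5 (survivin), which also acts in cell division, was the only one called, 2.38-fold lower (2.16 to 2.63) in CD43+ than in CD31+CD34+ cells, and XIAP stayed between 6.72 and 8.75 FPKM.

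Of the death receptor genes, 14 of 15 were kept, and 9 were higher and 0 lower from APLNR+ to CD31+CD34+ cells, with a median change of 1.16, where 13.0% of all genes were higher and 11.4% lower. From CD31+CD34+ to CD43+ cells 0 were higher and 6 lower, with a median of -0.63, where 7.63% of all genes were higher and 13.5% lower. CFLAR, which blocks caspase 8 activation, was at 3.54 FPKM in BC1, 15.8 in APLNR+ cells, 152 in CD31+CD34+ cells and 52.8 in CD43+ cells. TNFSF10 (TRAIL) was at 6.25 FPKM in CD31+CD34+ cells and at most 0.659 in the others. The decoy receptors for it, TNFRSF10C and TNFRSF10D, were 6.5-fold (5.44 to 7.81) and 3.48-fold (3.07 to 3.94) higher in CD31+CD34+ than in APLNR+ cells and were lower again in CD43+ cells. These 2 genes are close paralogs, so reads may have been divided between them. The endothelial marker sum was also highest in CD31+CD34+ cells, at 1297 beside 91.9 in APLNR+ and 207 in CD43+ cells, and its part in these values was not tested.

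A list of 17 genes of the DNA damage response was kept in full. From APLNR+ to CD31+CD34+ cells 9 of the 17 were higher and 0 lower, beside 13.0% and 11.4% of all genes. From CD31+CD34+ to CD43+ cells 0 were higher and 5 lower, beside 7.63% and 13.5%. The endothelial marker sum of 91.9, 1297 and 207 in these 3 populations was again highest in the middle one, and its part in these counts was not tested. With median ratio scaling of the libraries the count from APLNR+ to CD31+CD34+ cells was 8 higher and 1 lower. CDKN1A, the cell cycle inhibitor p21, was at 12.6 FPKM in BC1, 23.7 in APLNR+ cells, 228 in CD31+CD34+ cells and 111 in CD43+ cells. FDXR, ferredoxin reductase, was 5.52-fold higher (5.06 to 6.04) in CD31+CD34+ than in APLNR+ cells and RRM2B, a ribonucleotide reductase subunit, 4.92-fold higher (4.02 to 6.06). Of the members, BBC3 was higher and PMAIP1 lower at the first of these steps, and PMAIP1 was higher at the next. TIGAR, a regulator of glycolysis, was 6.06-fold lower (4.78 to 7.78) in CD43+ than in CD31+CD34+ cells. GADD45A differed at the first step instead, with 13.7 FPKM in BC1 and 144 in APLNR+ cells.

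Of the 14 mitochondrial partners and regulators of stability, all kept, 1, 0 and 0 were higher and 1, 1 and 0 lower at the 3 transitions. Beside them stand 9.15%, 13.0% and 7.63% of all genes higher and 9.32%, 11.4% and 13.5% lower. BAG3, a co-chaperone, was at 9.03 FPKM in BC1, 109 in APLNR+ cells, 31.6 in CD31+CD34+ cells and 17.4 in CD43+ cells. USP9X, a deubiquitinase that stabilises MCL1, was 2.73-fold lower (2.63 to 2.84) in APLNR+ cells than in BC1. Of 3 FOXO factors, known activators of BCL2L11, FOXO4 was lower at the first transition and higher at the second. FOXO3 was at 5.21 FPKM in CD31+CD34+ cells and 11.2 in CD43+ cells, a log2 change of 0.98 that was not called. FOXO1 was at 11.6 and 5.44 FPKM in the same populations, a log2 change of -0.97 that was not called either.

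**Figure D4:**
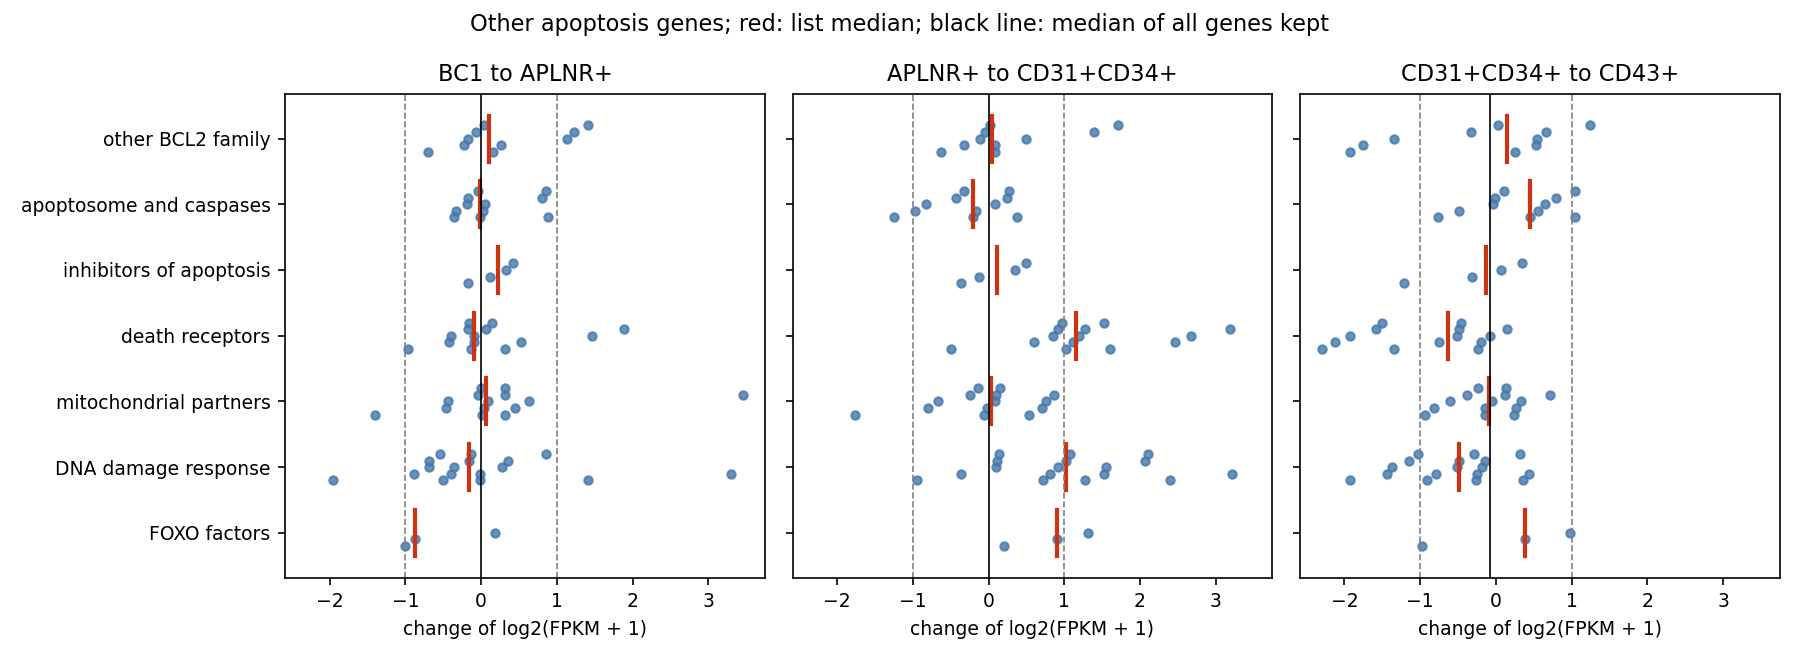
Change in log2(FPKM + 1) of the genes of 7 apoptosis lists at the 3 transitions, 1 point per gene kept, with the list median in red, the median of all genes as a black line and dashed lines at a change of 1. The death receptor and DNA damage lists have medians of 1.16 and 1.02 from APLNR+ to CD31+CD34+ cells and -0.63 and -0.49 from CD31+CD34+ to CD43+ cells.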

How the data were processed

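The authors deposited 1 table of gene-level FPKM values for the 4 libraries, made with a TruSeq RNA kit per the labels. The submitters' processing notes name BWA, Bowtie, RSEM and hg19 without role or version, whereas 99.5% of the identifiers and nearly all loci with the same version match GENCODE release 29 on GRCh38, which was used for positions. FPKM are not counts, so no count model was fitted. The 90 identifiers on more than 1 row were summed. Values were analysed as log2(FPKM + 1) over genes that reached 1 FPKM in any library, and a change of at least 1 was called.

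Mapped fragments were recovered from low values of genes with 1 transcript of at least 1000 bases, and between 93.7% and 95.6% of these values fell within 0.1 of a whole fragment. A gene's fragments were then taken from the median length of its coding transcripts, so interval widths depend on that length. Levels have exact Poisson and ratios exact Clopper-Pearson intervals at 95%, and 3 fragments are the floor. The depth recovery and the ratio intervals were tested on simulated data. For depth these were whole counts of genes with 1 transcript, so the use of a median length was not checked there.

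The members and lists were chosen with earlier results of these data known. Besides the members, each list names up to 3 called genes per comparison. These have the largest change among those with at least 5 FPKM in 1 library. FAS, TNFRSF10B, XIAP, FOXO1, BID, LYZ, CSF1R and ELANE were named after their values were seen. Some genes of the lists are not reported here. MARCH5, spelled as a date in the table, was matched by identifier. Alternatives were another pseudocount, filter, scaling, threshold and handling of repeated identifiers. Python 3.11.15, numpy 2.4.6, pandas 2.3.3, scipy 1.17.1 and matplotlib 3.10.9 were used.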

Additional observations from a re-analysis of the deposited data

How the results depend on the processing

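The 11 member changes past the threshold were recomputed with a pseudocount of 0.1, median ratio scaling and rescaling to 1000000, and all 33 values kept their sign and a size of at least 1. Counts of members past the threshold moved with the threshold. At 1.5-fold, 6 members instead of 3 passed from APLNR+ to CD31+CD34+ cells (45.2% of all genes), 6 instead of 3 from CD31+CD34+ to CD43+ cells (39.0%) and 5 instead of 3 between BC1 and CD43+ cells (54.4%). At a log2 change of 2, 0 instead of 2 passed from BC1 to APLNR+ cells and 0 instead of 3 from CD31+CD34+ to CD43+ cells. Fewer of all genes pass this stricter threshold too, so these drops are not read as a result about the members. A filter of 5 FPKM dropped BIK. It left 1 instead of 2 from BC1 to APLNR+ cells (18.2% of all genes). From CD31+CD34+ to CD43+ cells it left 2 instead of 3 (22.7%). Median ratio scaling brought BCL2L1 to 1.11 from CD31+CD34+ to CD43+ cells, past the threshold, giving 4 members (20.9% of all genes). A pseudocount of 0.1 or rescaling brought BIK past it from APLNR+ to CD31+CD34+ cells. Each gave 4 members, beside 35.9% of all genes with the pseudocount and 27.4% with rescaling. Rescaling each library to 1000000 shifted the median of all genes to -0.17 from CD31+CD34+ to CD43+ cells and -0.13 between BC1 and CD43+ cells. Of 28 counts over the wider lists, 14 moved by over 1.5 times at 1.5-fold, 22 at a log2 change of 2, 7 with a pseudocount of 0.1, 4 with rescaling and 3 with median ratio scaling. No change of a single member turned its direction under these settings. The balance of calls in the lists did so for the DNA damage genes from BC1 to APLNR+ cells, with 2 higher and 1 lower at a log2 change of 1 and 3 higher and 4 lower at 1.5-fold. The FOXO factors had 0 calls from CD31+CD34+ to CD43+ cells without other scaling, 1 higher with median ratio scaling and 1 lower with rescaling. No paired analysis was possible because each population had 1 library. Depth limits BIK and BCL2 to intervals that span a wide range of ratios. For BCL2A1 a level below the interval limits of 0.244 to 0.283 FPKM was not excluded at this depth.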

Other observations

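The genes whose pattern over the 4 populations was most like that of each member were read from 6041 genes whose level varied by at least 1 in log2(FPKM + 1), by the root mean squared difference of their centred log2 values. For BCL2L1 they were PIP4K2A (difference 0.118), UBE2L6 (0.152) and ADGRG1 (0.175). PIP4K2A, a phosphoinositide kinase, was at 8.78 FPKM in BC1, 3.58 in APLNR+ cells, 14.9 in CD31+CD34+ cells and 32.6 in CD43+ cells. For BCL2L11 the nearest was GUCY1B3, a subunit of soluble guanylate cyclase, at 0.776, 0.853, 1.83 and 8.25 FPKM in the same order. For BBC3 it was DMXL2 (0.0329), and for PMAIP1 it was CLU (0.15), which was at 244, 102, 16.0 and 39.6 FPKM. With 4 points and 6041 candidates, close patterns are found for most shapes, and nothing about shared function is drawn from them.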
